A study of Mus musculus with 6 samples.

Results

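CD8 T cell droplets from mouse gliomas were split by whether they also held RNA of C1q-expressing myeloid cells, and the T cell genes, T cell receptor clones and surface tags of both kinds of droplet were compared. A droplet is 1 cell barcode of a droplet-based single-cell capture. It entered when it had a T cell receptor contig with exactly 1 beta chain (TRB), at least 5000 gene UMIs (unique molecular identifiers, 1 per captured RNA molecule), at most 10% mitochondrial UMIs, Cd8a or Cd8b1 detected and Cd4 at 0 UMIs. Of 2688 such droplets on day 13, 199 held at least 10 UMIs of C1qa, C1qb and C1qc together and are called C1q-high, and 2367 held 0 or 1 and are called C1q-low. On day 19 there were 291 C1q-high and 1189 C1q-low droplets among 1624. The 122 and 144 droplets with 2 to 9 C1q UMIs lie between the groups. The barcodes with a contig numbered 8359 and 4295 in all.

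All cells came from wild-type C57BL/6J mice, 6 to 8 weeks old, that carried intracranial CT2A tumors, a transplanted mouse glioma cell line. CD4 and CD8 T cells, each gated with CD3, were sorted from tumors of 16 mice on day 13, pooled by 4, and from tumors of 4 mice on day 19. Each day was loaded as 1 capture with 5' gene expression, T cell receptor and antibody tag libraries. No untreated or tumor-free group enters, and day and capture cannot be told apart. T cell receptor contigs were deposited as 4 tables per day, called contig sets here. The labels do not say whether a set is a mouse, a pool of mice or another split of the capture. The sets are therefore used as a range for each value and not as replicates, no p-value is given anywhere, and every interval covers counting error only, not the spread between cells or mice.

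C1qa, C1qb and C1qc encode the subunits of the complement protein C1q, which tissue macrophages and microglia make in large amounts and T cells do not. Macrophages in a tumor take up debris and present peptides to T cells on MHC molecules. CD8 T cells that meet their antigen for a long time can become exhausted: progenitor cells that express the transcription factor TCF-1 (Tcf7) give rise to cells that express inhibitory receptors such as PD-1 (Pdcd1) and lose Tcf7. A droplet that holds both T cell and myeloid RNA can contain a pair of cells that travelled together, a pair that met in the capture, or a T cell that carries myeloid RNA. These cases cannot be told apart here.

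The C1q genes do not separate macrophages from microglia, and the myeloid side of the C1q-high droplets held markers of both, as described further on. A further set of barcodes shows what the myeloid cells look like without a T cell. These T-free droplets had no contig, met the same depth and mitochondrial limits, held at least 10 C1q UMIs and had no UMI of Cd3d, Cd3e or Cd3g. There were 271 on day 13 and 113 on day 19. A UMI of Cd8a or Cd8b1 was present in 6.27% and 4.42% of them, which is the level at which the CD8 condition is met with neither a contig nor CD3 RNA.

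Median depth was 11224 gene UMIs in C1q-high, 7203 in C1q-low and 8729 in T-free droplets on day 13, and 12544, 8884 and 9580 on day 19. The median number of UMIs from 16 T cell reference genes (the CD3 subunits, T cell receptor constant genes, Lck, Lat and others) was 45 against 53 on day 13 and 68 against 67 on day 19. Total depth therefore differed between the groups much more than T cell depth did, and C1q-high droplets had fewer T cell UMIs at the median on day 13 only. Barcodes with 10 to 99 gene UMIs, which hold free RNA only, carried a mean of 0.0970 C1q UMIs on day 13 and 0.0964 on day 19. Between the days, 10 barcode sequences recurred among the C1q-high and C1q-low droplets, with 0 shared by the C1q-high droplets of both days, and no barcode occurred in more than 1 contig table. The most abundant of the 4 multiplexing tags had the same number as the contig set for 99 to 100% of a set's barcodes on day 13 and 88.6 to 94.3% on day 19.

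T cells that descend from 1 naive cell carry its receptor, so a shared receptor sequence is used as a sign of shared descent. A clone was defined by the nucleotide sequence of the TRB CDR3, the loop that contacts peptide and MHC, with the same V and J genes within a contig set. It is a shared beta chain, which does not establish a shared alpha chain or a shared ancestor, least of all if a set pools mice. The CDR3 sequences of the 3 clones per day with the most C1q-high droplets are shown because they occur in both kinds of droplet. T cells with an identical beta chain can thus be compared between C1q-high and C1q-low droplets. C1q-low droplets are low in C1q and not free of other myeloid RNA, with 23.5 UMIs of MHC class II genes per droplet on day 13. Capitals mark the first and the last codon of each CDR3, and sequences run 5' to 3' as in the deposited contigs.
Day 13, set 2, TRBV17 and TRBJ2-1: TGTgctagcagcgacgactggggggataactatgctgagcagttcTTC
Day 13, set 2, TRBV20 and TRBJ2-7: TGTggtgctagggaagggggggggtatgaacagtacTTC
Day 13, set 3, TRBV2 and TRBJ1-2: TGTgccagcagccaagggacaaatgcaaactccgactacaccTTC
Day 19, set 2, TRBV5 and TRBJ2-5: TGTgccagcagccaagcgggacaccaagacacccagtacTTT
Day 19, set 2, TRBV26 and TRBJ1-6: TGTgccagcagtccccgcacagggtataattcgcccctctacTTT
Day 19, set 3, TRBV16 and TRBJ2-7: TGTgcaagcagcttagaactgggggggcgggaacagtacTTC
The 6 loops had 39 to 48 bases and no V and J pair recurred among them. Their clones had 25, 19 and 46 barcodes on day 13 and 151, 72 and 50 on day 19.

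C1q-high droplets made up 7.40% of CD8 droplets on day 13 (95% exact binomial interval 6.44 to 8.46) and 17.9% on day 19 (16.1 to 19.9). By contig set the share was 14.8%, 6.15%, 5.72% and 8.55% on day 13 and 38%, 12.4%, 14.5% and 23.6% on day 19. The sets of the 2 days overlapped: set 1 of day 13 lay above sets 2 and 3 of day 19. On both days set 1 had the highest share and the fewest CD8 droplets, 304 on day 13 and 179 on day 19. Without set 1 the share was 6.46% on day 13 and 15.4% on day 19. How many cells were loaded, which sets the chance that cells share a droplet, was not used here, and its part in the difference between days was not tested. Barcodes with at least 10 C1q UMIs and a CD3 UMI but no contig, 1392 on day 13 and 782 on day 19, are outside these shares. Whether the contig tables kept such barcodes alike on both days was not tested.

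The values around the limit of 10 C1q UMIs describe how sharp the split is. On day 13, 19 droplets had 10 to 14 C1q UMIs and 33 had 5 to 9. Pdcd1 stood at 44.6 per 1000 T cell reference UMIs in the first and 27.1 in the second, and Tcf7 at 25.1 and 35.6. On day 19, 28 and 47 droplets lay in these ranges, with Pdcd1 at 34.2 and 41.5 and Tcf7 at 10.2 and 9.93. C1q counts within the C1q-high groups ran from 10 to 413 with a median of 60 on day 13, and from 10 to 696 with a median of 44 on day 19. Most C1q-high droplets therefore lay well above the limit.

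Summed over each list, macrophage and microglia markers in C1q-high droplets lay below their level in T-free droplets and far above that in C1q-low droplets. The 12 macrophage markers summed to 67.4 UMIs per droplet in C1q-high, 1.40 in C1q-low and 177 in T-free droplets on day 13, and to 53.2, 0.849 and 118 on day 19. The 8 microglia markers summed to 37.4, 0.619 and 63.0 on day 13 and to 23.3, 0.641 and 50.8 on day 19. The 7 T cell markers summed to 41.3, 45.7 and 0.561 UMIs on day 13 and to 55.8, 54.2 and 0.310 on day 19. All but Trac of these markers entered the rules that chose the droplets, through the CD8 and Cd4 conditions or the absence of CD3 in T-free droplets, so these sums only describe the groups. All macrophage and microglia markers were detected in the C1q-high droplets of both days.

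**Figure D1:**
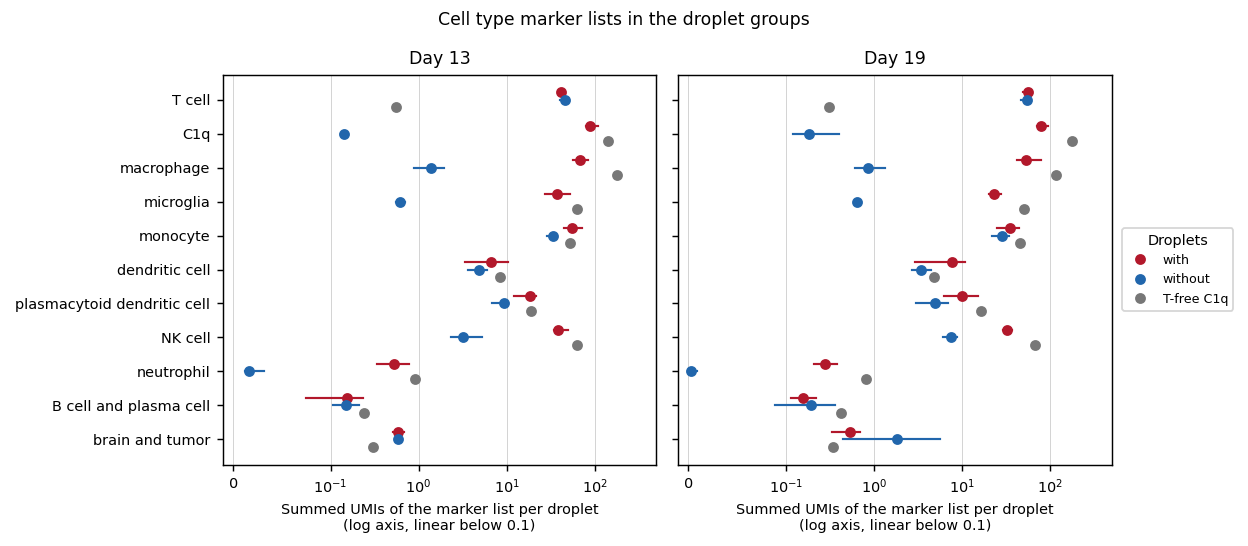
Summed UMIs per droplet of each cell type marker list (horizontal log axis, linear near 0) on day 13 and day 19, with 1 point for each droplet group: with (C1q-high), without (C1q-low) and T-free. The C1q list separates the groups because it defines them. The macrophage, microglia and NK lists sit far higher in the C1q-high than in the C1q-low droplets, and the T cell list, most of which the rules also used, is at 41.3 and 45.7 on day 13.

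Apoe, a lipid carrier of macrophages and activated microglia, averaged 40.6 UMIs per C1q-high droplet on day 13 (48.3, 32.0, 34.2 and 53.4 in sets 1 to 4), 0.551 per C1q-low droplet and 115 per T-free droplet. Csf1r, the receptor for the myeloid growth factor CSF-1, averaged 7.34, 0.136 and 13.5, and Trem2, a lipid-sensing receptor, 3.80, 0.0186 and 6.65. The microglia genes P2ry12, a purine receptor, and Tmem119, a surface marker, averaged 3.38 and 3.23 UMIs per C1q-high droplet and were present in 49.7% and 52.8% of them. On day 19, the means in C1q-high droplets were lower for P2ry12 (1.14) and Tmem119 (1.47), yet the shares of droplets with a UMI were 45.4% and 48.8%. Other markers moved in either direction between the days: Fcrls was present in 51.8% and 37.8% of C1q-high droplets, Siglech in 39.2% and 31.3%, and Sparc in 64.3% and 72.5%, with median depth higher on day 19. Sall1, a transcription factor of microglia, was present in 9.05% and 11.0% of C1q-high droplets. Mrc1, which marks another macrophage state, was rare, at means of 0.0151 and 0.0653.

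Per 100 C1q UMIs, some genes differed between C1q-high and T-free droplets. The C1q count also chose both groups, so this scale is not an independent measure of the amount of myeloid RNA. Whether C1q per myeloid cell or the mix of myeloid cells differed was not tested. On day 13, Apoe stood at 45.5 per 100 C1q UMIs in C1q-high and 80.3 in T-free droplets, Gpnmb at 1.82 and 5.49 and Spp1 at 1.22 and 6.62. Gpnmb and Spp1 are genes of lipid-laden and matrix-remodelling macrophages. On day 19, Apoe was at 40.2 and 39.8 and Spp1 at 3.66 and 1.52, so neither difference recurred, while Gpnmb was again lower in C1q-high droplets, at 0.573 and 0.841. Spp1 on day 19 averaged 8.28 UMIs in set 1 and 0.598 to 2.18 in the other sets. Sparc and Csf1r stood at 6.54 and 8.22 per 100 C1q UMIs in C1q-high droplets and 5.83 and 9.41 in T-free droplets on day 13.

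Genes through which macrophages act on T cells came with the myeloid RNA. The 8 genes of MHC class II presentation summed to 151 UMIs per C1q-high droplet, 23.5 per C1q-low and 279 per T-free droplet on day 13, and to 135, 11.8 and 390 on day 19. Cd74, the chaperone of class II molecules, averaged 61.7, 11.0 and 118 on day 13 and 57.1, 5.38 and 171 on day 19. The 8 genes of class I presentation, which T cells express too, summed to 161 against 105 and then 160 against 112. Cxcl16, the ligand of the receptor CXCR6, averaged 3.82, 0.425 and 6.86 on day 13 and 2.48, 0.155 and 5.83 on day 19. The chemokines Cxcl9 and Cxcl10, ligands of CXCR3, averaged 2.09 and 6.09 in day-13 C1q-high droplets and 1.85 and 1.58 on day 19. Cd86, a costimulatory ligand, averaged 1.64 and 1.13, and Cd274, which encodes PD-L1, 1.22 and 0.790. Some of these genes were also found without C1q RNA: Cxcl10 stood at 2.94 and Cd274 at 0.639 in day-13 C1q-low droplets. The class II gene H2-Aa had a UMI in 11.8% of those C1q-low droplets, at a mean of 3.53 over all of them. Whether UMIs of such genes came from the T cells, from free RNA or from another cell in the droplet was not tested.

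Among the markers of other cell types, those of neutrophils, B cells and erythrocytes were mostly at 0, while some of those of dendritic cells were found more often in C1q-high droplets. The neutrophil genes S100a8, S100a9, Cxcr2 and Retnlg, all 4 hemoglobin and erythrocyte genes, and the B cell genes Cd79a and Ms4a1 were at 0 UMIs in the C1q-high droplets of both days. The remaining neutrophil marker, Csf3r, a growth factor receptor, had a UMI in 31.7% of C1q-high, 1.06% of C1q-low and 51.3% of T-free droplets on day 13. Cd79b, also in the B cell list, had a UMI in 14.1%, 8.58% and 13.7% of these droplets, not corrected for depth. The NK list summed to 38.4 UMIs per C1q-high droplet on day 13, but Fcer1g (22) and Tyrobp (16.3), which myeloid cells express as well, made up nearly all of it, and the defining NK genes Ncr1 and Klrb1c averaged 0.0302 and 0.0704. Monocyte markers summed to 55.1 UMIs in C1q-high and 33.8 in C1q-low droplets on day 13, led by Ly6c2 (41.2 and 25.5), which CD8 T cells also express. Dendritic cell markers summed to 6.60 and 4.79 on day 13 and to 7.64 and 3.48 on day 19, with sets that overlapped on both days. Ccr7, which T cells also express and which is in the progenitor list as well, made up 3.50 and 3.16 of the day-13 sums and 4.50 and 2.69 of the day-19 sums. As CPM the sums were 512 and 523 on day 13 and 546 and 317 on day 19. Fscn1, an actin-bundling protein of mature dendritic cells, had a UMI in 31.7% of C1q-high, 4.18% of C1q-low and 44.3% of T-free droplets on day 13, and in 22.7%, 2.02% and 27.4% on day 19. Flt3 and Zbtb46, which define conventional dendritic cells, were present in 5.03% and 4.02% of C1q-high against 3.21% and 2.96% of C1q-low droplets on day 13, and in 4.81% and 4.81% against 1.26% and 1.93% on day 19. Xcr1 was at 0 in the C1q-high droplets of day 19. Plasmacytoid dendritic cell markers summed to 18.2 and 9.29 on day 13 and to 9.99 and 4.98 on day 19, nearly all of it Bst2 (17.6 and 9.03, then 9.33 and 4.85), which interferon induces in many cells. The part of dendritic cells in the results that follow was not tested.

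The T cell side was compared on a scale that leaves the myeloid RNA out: a gene's UMIs per 1000 UMIs of the 16 T cell reference genes, summed over the droplets of a group. A gene was read as T cell-restricted where T-free droplets had at most 10% of its mean in C1q-low droplets of that day, so that the myeloid RNA adds little to it. Of the genes with at least 100 UMIs, 480 were restricted on day 13 and 331 on day 19, and their median log2 ratio of C1q-high over C1q-low was 0.04 and -0.01. The scale itself sets the T cell reference genes level, so these medians say where the scale is centred and not how alike the T cells were. Restriction is judged against C1q-low droplets, so a gene that is high there passes more easily, and counts of lower genes are raised by this choice.

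Few restricted genes differed by 2-fold. On day 13, 12 of 480 (2.5%) were at least 2-fold higher in C1q-high droplets and 35 (7.29%) at least 2-fold lower, and 8 and 26 of these were receptor segments, ribosomal genes or unnamed gene models. On day 19, 5 of 331 (1.51%) were higher and 11 (3.32%) lower. As CPM of all gene UMIs, a scale that counts the myeloid RNA in the total, the median of the restricted genes moved to -0.60 and -0.33, and 3 higher and 94 lower genes were found on day 13. Ratios on that scale are read relative to those medians. Among restricted genes with at least 30 UMIs, which is the limit used for the gene lists, the 95% counting interval lay above 0 for 12.5% and below 0 for 8.77% of 673 genes on day 13, and for 10.7% and 10.5% of 591 genes on day 19. The counts in each list are to be read against these shares.

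Genes of exhaustion and inhibitory receptors were mostly higher in C1q-high droplets on day 13. Of 20 listed genes, 8 were restricted, 6 were higher and all 6 had intervals above 0, with a median log2 ratio of 0.45 against 0.04. That median was 0.15 when the C1q-low droplets were weighted to the clone sizes and sets of the C1q-high droplets, 0.20 with a restriction limit of 2%, 0.19 without cycling droplets, 0.20 without set 3 and, as CPM, -0.19. On day 19, 8 of 10 restricted genes were higher, 4 with intervals above 0 and 1 below, and the median was 0.13 against -0.01 for the restricted genes with at least 100 UMIs. With the weights the day-19 median was 0.06 and as CPM it was -0.19.

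Pdcd1, which encodes PD-1, stood at 43.0 per 1000 T cell reference UMIs in C1q-high and 29.6 in C1q-low droplets on day 13. Sets 1 to 4 gave 30.7, 42.4, 46.3 and 53.5 in C1q-high and 27.6, 30.4, 27.6 and 32.5 in C1q-low droplets. Each set was higher in C1q-high droplets, although set 1 of C1q-high lay below set 4 of C1q-low, and the log2 ratio was 0.54 (95% counting interval 0.40 to 0.67). On day 19, Pdcd1 was at 38.7 and 38, with sets at 33.7, 41.4, 39.4 and 39.0 against 29.7, 42.7, 34.0 and 32.8. The day-19 ratio of summed UMIs was 0.03 (-0.08 to 0.14), with 16 of 22 alternatives of the same sign. The share of droplets with a Pdcd1 UMI and the ratio among droplets alone in their clone, both given further on, were higher in C1q-high droplets on day 19 as well. With the clone-size weights the Pdcd1 ratio was 0.35 on day 13 and -0.06 on day 19. A test of the difference between the days is not possible with 1 capture each.

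Tigit, an inhibitory receptor for ligands of the nectin family, was higher on both days, at 30.9 against 20.8 on day 13 (0.57, 0.41 to 0.73) and 38.1 against 30.6 on day 19 (0.32, 0.20 to 0.43). Without set 2 the day-13 ratio was 0.36, and with the clone-size weights the day-19 ratio was 0.11. Its day-13 sets ran from 22.4 to 36.0 in C1q-high and from 18.5 to 25.8 in C1q-low droplets and overlapped. Ctla4, which competes with CD28 for its ligands, behaved differently by day. It was at 24.9 against 25.4 on day 13 (-0.03, -0.21 to 0.14) and at 36.3 against 24.2 on day 19 (0.59, 0.47 to 0.70). On day 19 all 4 sets of C1q-high (41.2, 34.6, 38.6 and 33.6) lay above all 4 of C1q-low (22.8, 25.3, 24.9 and 21.1), as they did for 2.03% of the 591 restricted genes. Foxp3, which marks regulatory T cells that carry much Ctla4, had a UMI in 4.81% of C1q-high and 1.93% of C1q-low droplets on day 19. Without those droplets the Ctla4 ratio was 0.33, and without droplets that had a UMI of the cycling genes Mki67 or Top2a it was 0.32.

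Tox, a transcription factor of exhausted cells, was at 11.2 against 7.84 on day 13 (0.52, 0.25 to 0.78) and 11.7 against 10.3 on day 19 (0.18, -0.03 to 0.37). Its day-13 ratio was 0.19 without droplets that had a Mki67 or Top2a UMI. Rgs16, a regulator of G protein signalling induced by activation, had ratios of 0.39 and 0.24, which were 0.05 and 0.09 with the clone-size weights, and 0.15 on day 13 without set 3. Nrgn, a calmodulin-binding protein, had a ratio of 0.83 on day 13 that came from 67 UMIs in 12 C1q-high droplets, with sets between 1.5 and 10.1. Cxcr6, the receptor for CXCL16, had ratios of 0.20 (0.04 to 0.35) and 0.09. Cd160 had ratios of -0.16 and -0.13, with intervals that held 0. Eomes, restricted on day 19 only, was lower at 3.97 against 5.45 (-0.46, -0.80 to -0.13).

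Lag3 was listed as a gene that myeloid cells lack, but T-free droplets carried it at a mean of 3.12 UMIs on day 13 and 2.50 on day 19, against 1.47 and 2.7 in C1q-low droplets. It is an inhibitory receptor that binds MHC class II. Lag3 was at 54.2 in C1q-high and 22.5 in C1q-low droplets on day 13 (1.27, 1.14 to 1.39) and at 54.4 and 35.4 on day 19 (0.62, 0.52 to 0.71). These ratios hold RNA from the myeloid side, so they say nothing about the T cells alone. Havcr2, which encodes TIM-3, Entpd1, which encodes CD39, and 9 further listed genes of day 13 were left out for the same reason.

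**Figure D2:**
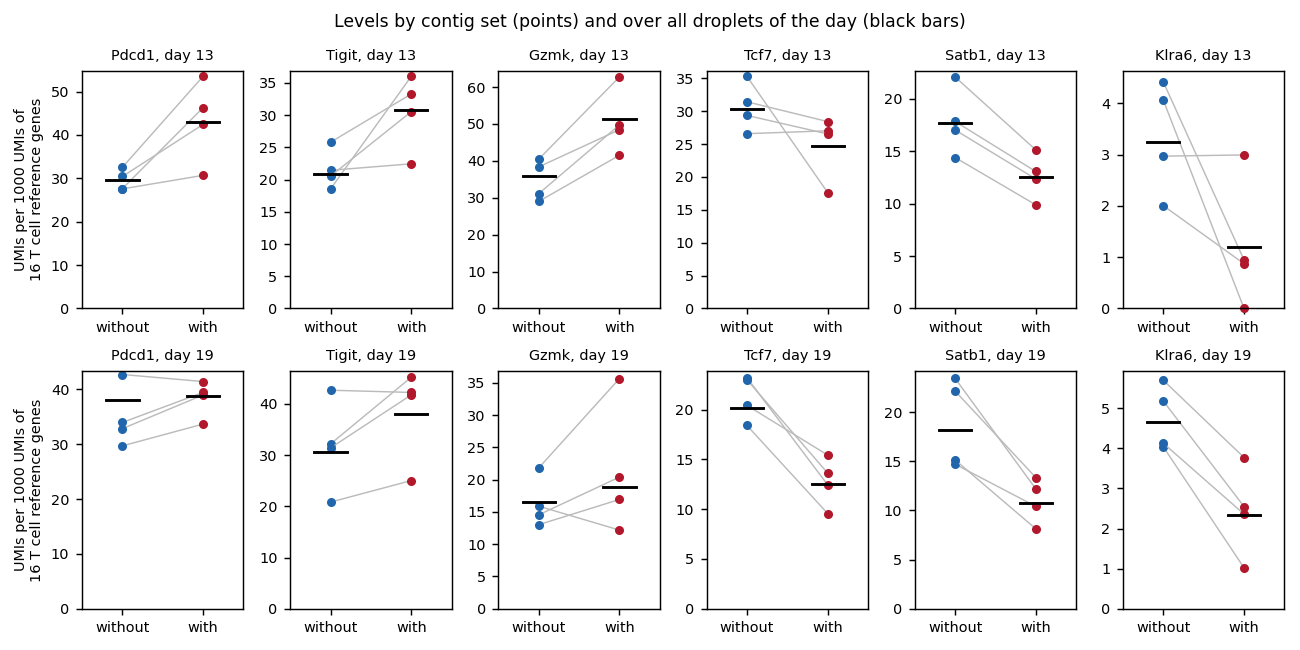
Levels of selected genes in UMIs per 1000 UMIs of 16 T cell reference genes (vertical axes from 0), with 1 point per contig set and a black bar for all droplets of the day, without (C1q-low) beside with (C1q-high). Pdcd1 and Gzmk stand higher with C1q on day 13, while Tcf7 stands lower on day 19, where the 4 C1q-high sets (9.56 to 15.4) lie below the 4 C1q-low sets (18.4 to 23.2).

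Genes of progenitor and memory cells were mostly lower in C1q-high droplets. Of 15 listed genes, 6 were restricted on each day. On day 13, 5 of 6 were lower, 4 with intervals below 0, and Ltb was above (0.11), with a median of -0.32. On day 19, 5 of 6 were lower by at least 0.27, 4 with intervals below 0, and Ltb was level, with a median of -0.35. The medians shrank to -0.18 on both days with the clone-size weights. Without set 3 the day-13 median was -0.17 and without set 2 it was -0.51. The day-19 median was -0.12 with at least 50 T cell reference UMIs and -0.55 without set 4. The share with intervals below 0 over all restricted genes was 8.77% and 10.5%. Il7r, Ccr7, Slamf6 and 6 further listed genes were not restricted.

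Tcf7 was at 24.7 per 1000 T cell reference UMIs in C1q-high and 30.3 in C1q-low droplets on day 13 (-0.30, -0.47 to -0.13). The sets were 28.4, 27.0, 17.6 and 26.5 against 31.4, 26.6, 35.3 and 29.4, so they overlapped and set 2 was level. Set 3 carried most of the day-13 difference: without it the ratio was -0.04, against -0.47 without set 2. With the clone-size weights the Tcf7 ratio was -0.07 on day 13 and -0.35 on day 19. On day 19 it was at 12.5 and 20.1 (-0.68, -0.87 to -0.50), and the sets did not overlap, at 12.4, 9.56, 13.6 and 15.4 against 23.2, 18.4, 23.0 and 20.4. All sets of C1q-high below all of C1q-low occurred for 2.71% of restricted genes on day 19 and 5.5% on day 13. Satb1, a chromatin organiser of naive and progenitor T cells, was at 12.5 against 17.7 on day 13 (-0.50) and 10.8 against 18.2 on day 19 (-0.75, -0.95 to -0.56), again without overlap on day 19 (8.12 to 13.3 against 14.7 to 23.4). Lef1, a partner of TCF-1, had ratios of -0.47 (-0.31 without set 3 and -0.77 without set 2) and -0.29, and Cd27, a costimulatory receptor of less differentiated cells, -0.22 and -0.27. Among droplets with at least 50 T cell reference UMIs, the day-19 ratios were -0.62 for Tcf7, -0.47 for Satb1 and 0.05 for Lef1.

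Ly49 receptors are lectin-like receptors for MHC class I that a subset of CD8 T cells shares with NK cells. Their genes are close copies of each other, so that reads may be split or lost between them and single genes are uncertain. Of 11 Klra genes, 3 were restricted and reached 30 UMIs on day 13 and 4 on day 19, all of them lower in C1q-high droplets, with medians of -0.44 and -0.65. The interval lay below 0 for 2 of them on each day, against 8.77% and 10.5% of all restricted genes. A gene that is high in C1q-low droplets passes the restriction limit more easily, so the shared direction is partly set by that limit. With the clone-size weights the medians were -0.10 and -0.27, and the day-19 median was -1.02 without set 2 and -0.99 without set 3. Klra6 was at 1.2 against 3.24 on day 13 (-1.43, -2.31 to -0.67), from 14 UMIs in 9 C1q-high droplets, and at -2.29 without set 1. On day 19 it was at 2.34 against 4.65 (-0.99, -1.43 to -0.58), with sets of 1.02, 2.36, 3.77 and 2.55 against 4.03, 4.12, 5.69 and 5.18 that did not overlap. Klra7 was at 6.00 against 8.12 on day 13 (-0.44, -0.81 to -0.09), but without set 3 the ratio was 0.23 and the median of the Ly49 genes with it. Klra1 had ratios of -0.14 and -0.30 with intervals that held 0. On day 19, Klra5 was at 1.63 against 3.39 (-1.05, and -1.72 without set 2), Klra9 at 0.750 against 0.927, and Klra7, which missed the restriction limit, at 5.60 against 11.5 with set 3 (16.2) above all sets of C1q-low.

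Cytotoxic genes showed no common direction on day 13 and were higher more often than lower on day 19. The 7 restricted granzyme and perforin genes of day 13 had a median of -0.04 and the 10 of day 19 one of 0.11. On day 13, 3 were higher, and 3 intervals lay above and 2 below 0, against 12.5% and 8.77% of all restricted genes. On day 19, 7 were higher, and 5 intervals lay above and 2 below 0, against 10.7% and 10.5%. Gzmk, a granzyme of effector-memory cells, was at 51.4 against 35.9 on day 13 (0.52, 0.39 to 0.64). Its C1q-high sets (41.5, 62.8, 49.8 and 48.5) lay above its C1q-low sets (29.0, 40.5, 31.1 and 38.4), as for 2.53% of the 673 restricted genes. On day 19 Gzmk was at 18.9 against 16.5 (0.20, 0.04 to 0.36), and among droplets with at least 50 T cell reference UMIs the ratio was -0.19. The day-19 ratio was 0.08 without set 3, 0.39 without set 2 and 0.02 with the clone-size weights. Gzmb, the main granzyme of killer cells, was lower on day 13 at 163 against 211 (-0.37, -0.44 to -0.30). On day 19 it was at 238 against 225 (0.08). The day-13 Gzmb ratio was -0.21 without set 2, and the day-19 ratio was -0.28 without set 4 and 0.39 without set 2. Gzmc to Gzmg were carried by few droplets, with 3213 UMIs of Gzmf in 36 C1q-high droplets on day 19, and are not read further. Nkg7, a granule protein, was at 256 against 237 and 273 against 249.

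Among cytokines, Ifng, the macrophage-activating interferon, was at 41.8 against 30.1 on day 13 (0.47, 0.33 to 0.61) and 34.2 against 28.5 on day 19 (0.26, 0.14 to 0.38). Its day-13 sets overlapped, since set 2 was at 33.4 against 35.1, and the ratio was 0.20 without set 3 and 0.76 without set 2. A single C1q-high droplet held 87 of the 487 day-13 Ifng UMIs, and a single C1q-low droplet 84 of 4643. Fasl, a death ligand, was at 15.6 against 11.2 on day 13 (0.48, 0.26 to 0.71). Xcl1, a chemokine that attracts type 1 dendritic cells, was lower on both days (-0.36 and -0.41), but single droplets held up to 61 and 259 of its C1q-high UMIs, and without set 3 its day-13 ratio was 0.04. Its day-19 ratio ran from -1.04 without set 2 to -0.17 without set 4, and was 0.46 without cycling droplets. Lta was lower on day 19 at 1.46 against 3.89 (-1.42), with sets that did not overlap, and level on day 13 (0.08). The restricted cytokine genes had medians of -0.14 (6 genes) and -0.47 (4 genes).

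Costimulatory and adhesion genes leaned upward on day 13, when 9 of 10 restricted genes were higher, 5 of them with intervals above 0, and the median was 0.15. On day 19, 6 of 10 were higher, 3 with intervals above 0, and the median was 0.02. Icos, a costimulatory receptor, was at 15.2 against 12 (0.34) and 12.6 against 9.55 (0.40, 0.20 to 0.60), with day-19 sets of 12.6, 13.2, 14.5 and 10.9 against 9.08, 9.94, 10.7 and 7.45. Without cycling droplets the day-19 Icos ratio was 0.08. Tnfrsf18, which encodes GITR, was at 30.7 against 25 on day 19 (0.30), where its C1q-high sets lay above its C1q-low sets. Cd8a and Cd8b1, the CD8 coreceptor, had ratios of 0.12 and 0.03, then 0.02 and 0.02, but a UMI of either was a condition of entry for both groups, so these values are no result. The genes of T cell receptor signalling and its feedback had medians of 0.15 (7 genes) and 0.07 (6 genes), with 1 interval above 0 on each day.

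Droplets with a UMI of a cycling gene were more frequent among C1q-high droplets, in counts that were not corrected for depth. A UMI of Mki67 or Top2a was present in 33.7% of C1q-high, 22.9% of C1q-low and 14% of T-free droplets on day 13, and in 43.3%, 33.9% and 28.3% on day 19. Median depth was higher in C1q-high droplets too, and the part of depth and of cycling myeloid cells in this share was not tested. On the T cell scale, the 6 cell cycle genes that were restricted on day 13 had a median ratio of 0.03, with Ccnb2 at 0.63 and Rrm2 at -0.51, and none was restricted on day 19. Leaving out droplets with a Mki67 or Top2a UMI gave an exhaustion median of 0.19 on day 13 and 0.23 on day 19, and a progenitor median of -0.38 and -0.48.

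**Figure D3:**
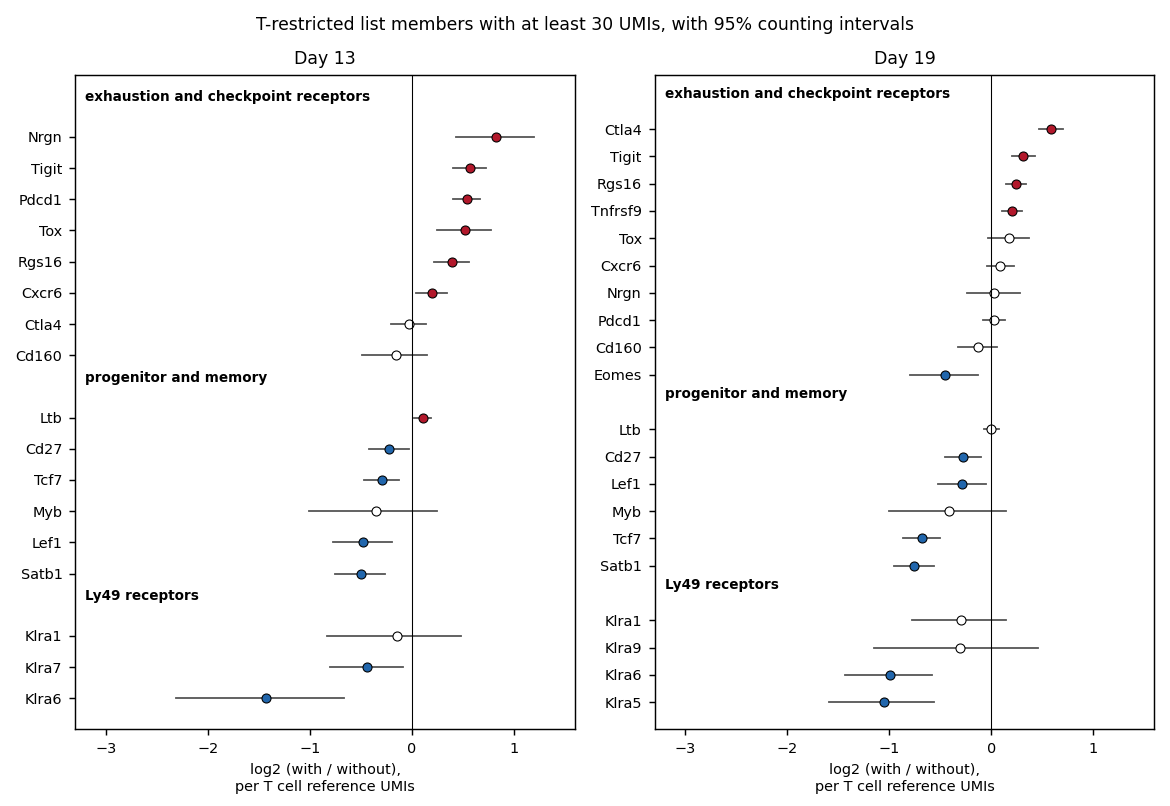
Log2 ratios of C1q-high over C1q-low droplets (horizontal axis) for the restricted members of the T cell lists with at least 30 UMIs, with 95% counting intervals as bars. Exhaustion genes lie mostly to the right on day 13 (median 0.45) and nearer to 0 on day 19 (median 0.13), while progenitor genes and Ly49 genes lie mostly to the left on both days.

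The genes with the most extreme ratios were mostly rare. Among restricted genes with at least 100 UMIs, the lowest on day 13 after removal of receptor segments, ribosomal and unnamed genes were Slc35f2 (-2.17), Klra6 (-1.43), Tmem108 (-1.32), Dapl1 (-1.25), Gpr15 (-1.22) and Prss12 (-1.10). The highest were Igfbp7 (1.29), Ntrk3 (1.14), Qrfp (1.10), Gprin3 (1.03), Cdc25c (0.98) and Fancd2 (0.90). Igfbp7, a secreted binding protein, owed its 43 C1q-high UMIs to 6 droplets. On day 19, Ltf (2.36), Rora (1.09), Gzmd (1.07), Penk (0.98), Sv2c (0.96) and Gzme (0.95) were the highest. Ltf, which encodes lactoferrin, came from 10 C1q-high droplets and stood at 23.8 in set 3 against 0.899 to 2.65 in the other sets. One droplet held 125 of the 155 Gzmd UMIs and another 38 of the 43 Penk UMIs. Rora, a nuclear receptor of innate-like and type 17 lymphocytes, was more widely spread, with a UMI in 62 C1q-high droplets at 4.28 against 2.01 (0.72 to 1.45).

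The lowest genes of day 19 included 2 that belong to choroid plexus, Ttr and Enpp2. Ttr had 0 UMIs in C1q-high droplets and 1505 in C1q-low droplets, 729 of them in 1 droplet, which places the log2 ratio at -6.97 or lower when the 0 is set to 3 UMIs over the group. Enpp2 had 1 and 124. The others were Dapl1 (-2.005), Gzmg (-1.59, 154 of 168 C1q-low UMIs in 1 droplet), Lta (-1.42) and Klra5 (-1.05). Dapl1, which memory and progenitor CD8 T cells express, was the only gene among the 6 lowest of both days. It was at 2.74 against 6.54 on day 13, with sets of 1.12, 4.65, 2.83 and 1.69 against 6.97, 6.33, 8.00 and 4.24. On day 19 it was at 2.03 against 8.15 (-2.47 to -1.57), and the sets did not overlap (1.02, 2.49, 1.74 and 2.40 against 5.33, 6.68, 11.9 and 9.16).

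C1q-high droplets belonged to expanded clones more often. A clone was counted over all barcodes of its contig set with exactly 1 TRB, whatever their gene counts. On day 13, 38.7% (31.9 to 45.8) of C1q-high and 29.7% (27.9 to 31.6) of C1q-low droplets had a clone of at least 2 barcodes. On day 19 the shares were 50.2% (44.3 to 56.1) and 37.9% (35.2 to 40.8). C1q-high was above C1q-low in every set of both days, at 35.6% against 24.1%, 47.6% against 41.4%, 39.2% against 22.1% and 27.5% against 22% on day 13 and 44.1% against 24.7%, 60.8% against 45.7%, 52.1% against 32.3% and 41.0% against 28.4% on day 19. The difference in shares was 8.99 percentage points on day 13 and 12.2 on day 19. Without set 3 the day-13 difference was 4.86. Droplets of 1 clone are not independent, so the intervals are too narrow for a comparison of the groups.

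Over all sets together, the excess was found in clones of 2 to 9 barcodes on both days, while larger clones differed by day and set. Clones of 2 to 4 barcodes held 15.1% of C1q-high and 10.7% of C1q-low droplets on day 13 and 20.6% and 8.33% on day 19. In set 4 of day 13 they held fewer C1q-high (5%) than C1q-low droplets (9.51%). Clones of 5 to 9 held 9.05% and 6.55% on day 13 and 9.28% and 5.30% on day 19. Clones of at least 10 held 14.6% and 12.5% on day 13 and 20.3% and 24.3% on day 19. The day-19 difference in these large clones did not hold within the sets that had most of them, at 36.1% of C1q-high against 32.0% of C1q-low droplets in set 2 and 29.2% against 23.8% in set 3. It was 2.94% against 4.49% in set 1 and 10.3% against 11.6% in set 4. With at least 5 barcodes as the limit, the shares were 23.6% and 19.0% on day 13 and 29.6% and 29.6% on day 19. By set, the day-19 shares at that limit were 17.6% against 12.4%, 44.3% against 36.6%, 39.6% against 28.8% and 15.4% against 18.2%, higher in C1q-high droplets in 3 of 4 sets. The excess also moved with T cell depth: among droplets with at least 50 T cell reference UMIs, clones of at least 2 barcodes held 49.4% of C1q-high and 46.8% of C1q-low droplets on day 13, and 60.9% and 54.7% on day 19. Droplets with at least 2 TRA chains made up 8.54% of C1q-high and 11.2% of C1q-low droplets on day 13, and 14.8% and 19.6% on day 19. Droplets with no TRA chain made up 15.1% and 9.04%, and then 7.90% and 8.49%, so chains were also missed more often in C1q-high droplets on day 13, and droplets with 2 TRB chains had been left out by the rule. These shares therefore do not count second T cells.

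**Figure D4:**
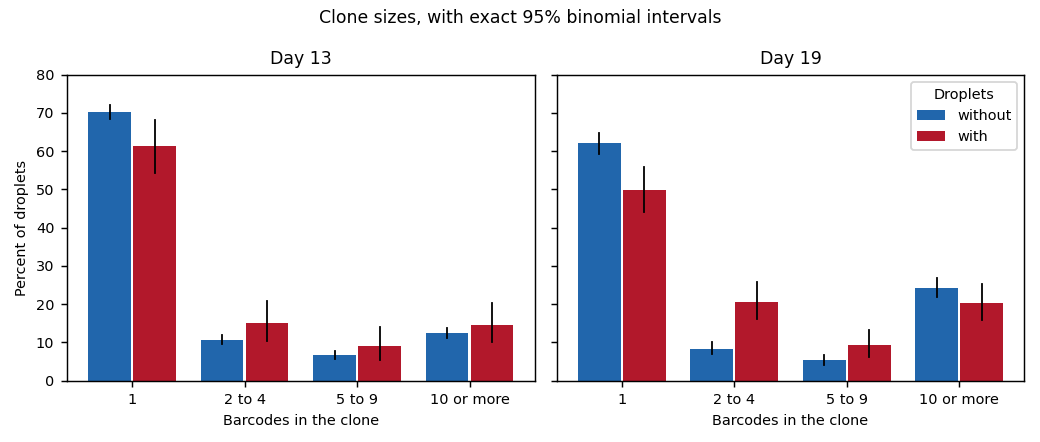
Percent of C1q-high (with) and C1q-low (without) droplets by the number of barcodes in their clone on each day, with exact 95% binomial intervals as lines. C1q-high droplets are fewer among clones of 1 barcode (61.3% against 70.3% on day 13, 49.8% against 62.1% on day 19) and more among clones of 2 to 4.

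Clone size and gene levels were then read together, since expanded cells differ from cells alone in their clone. Among droplets alone in their clone, Pdcd1 was at 30.4 in C1q-high and 17.6 in C1q-low droplets on day 13 (0.79, 0.57 to 1.00) and at 19.7 and 15.9 on day 19 (0.31, 0.07 to 0.55). In clones of at least 5 barcodes it was at 64.4 and 52.0 on day 13 (0.31, 0.10 to 0.51) and at 49.6 and 61.0 on day 19 (-0.30, -0.45 to -0.15). The near absence of a Pdcd1 difference on day 19 thus joined opposite directions in droplets alone in their clone and in large clones. The TRBV5 and TRBV26 clones held 113 and 46 of the 352 C1q-low droplets in those large clones. Few clones therefore weigh on the value there, and its interval does not cover the spread between clones. Ctla4 on day 19 was at 30.9 against 12.8 (1.27, 1.06 to 1.48) in droplets alone in their clone and at 42.2 against 35.2 (0.26, 0.09 to 0.43) in clones of at least 5. Gzmk on day 19 was at 15.4 against 8.34 (0.89, 0.60 to 1.17) in the first and 20.9 against 22.9 (-0.13, -0.38 to 0.10) in the second.

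The Tcf7 ratio was below 0 in droplets alone in their clone and above 0 in large clones, where its counts were small. In droplets alone in their clone it was at 32.1 against 45.2 on day 13 (-0.49, -0.70 to -0.29) and 22.6 against 39.3 on day 19 (-0.80, -1.01 to -0.59). In clones of at least 5 barcodes it was at 15.6 against 5.56 on day 13 (1.49, 1.02 to 1.93) and 2.27 against 1.02 on day 19 (1.15, 0.28 to 1.98). The C1q-high counts behind these last ratios were 51 UMIs in 16 droplets, 17 of them in 1 droplet, and 19 UMIs in 13 droplets. T-free droplets carry a little Tcf7, and at their mean level per droplet the myeloid side alone would give 4.86 and 9.13 UMIs there. These counts assume a full T-free load, while C1q-high droplets of day 19 held 79.8 C1q UMIs on average against 176 in T-free droplets. The T-free Tcf7 level of day 19 is itself uncertain, since it comes from 3.54% of 113 droplets. The myeloid part of the 19 UMIs therefore cannot be set, and the day-19 value above 0 is not read as a change in the T cells. Dapl1 was lower in droplets alone in their clone on both days (-1.92 and -1.74). In clones of at least 5 its day-13 ratio was 1.72, but 12 of the 14 C1q-high UMIs came from 1 droplet, and on day 19 those clones held 1 C1q-high UMI.

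**Figure D5:**
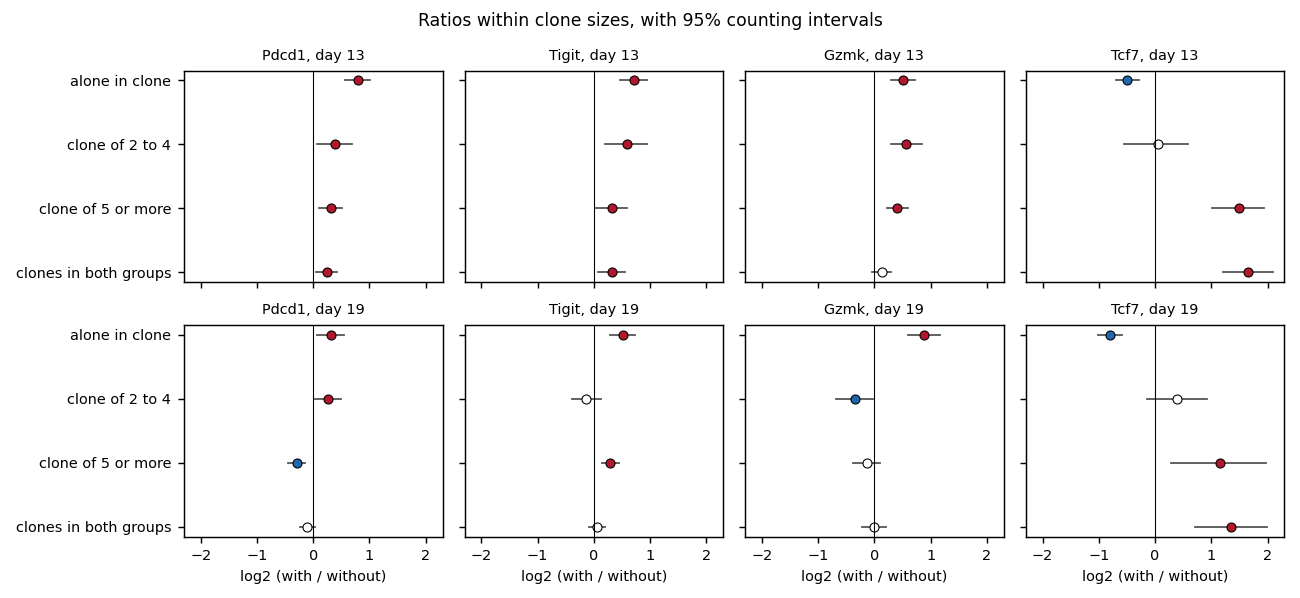
Log2 ratios of C1q-high over C1q-low droplets (horizontal axis) by clone size, and within clones present in both groups, for selected genes on each day, with 95% counting intervals as lines. Pdcd1 goes from 0.31 among droplets alone in their clone to -0.30 in clones of at least 5 on day 19. Tcf7 goes from negative to positive values on both days. Its day-19 positive values rest on 54 C1q-high UMIs in clones of 2 to 4, 19 in clones of at least 5 and 36 in clones present in both groups.

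Within clones that had droplets in both groups, the pooled Pdcd1 and Tigit ratios were above 0 on day 13 and had intervals that held 0 on day 19. There were 47 such clones on day 13, with 62 C1q-high and 266 C1q-low droplets, and 49 on day 19, with 108 and 359. Pdcd1 was at 62.4 against 53.0 on day 13 (0.24, 0.04 to 0.42) and 55.7 against 59.8 on day 19 (-0.10, -0.24 to 0.03). Clone by clone, its level was higher in the C1q-high droplets of 25 clones and lower in 20 on day 13, and higher in 29 and lower in 14 on day 19, with a log2 ratio weighted over clones of 0.32 and 0.04. Gzmk had ratios of 0.13 and -0.01, with 75 of its 321 day-13 C1q-high UMIs in 1 droplet, and was higher in 22 clones and lower in 23 on day 13 and higher in 18 and lower in 24 on day 19. Tigit was at 0.31 (0.08 to 0.55) and 0.06 (-0.09 to 0.21), with 18 clones higher and 28 lower on day 13, and 24 higher and 23 lower on day 19. With so few C1q-high droplets per clone, the level of a clone often rests on 1 sparse droplet, so the clone counts of this and the other genes are not read against the ratios. Gzmb was lower on both days, at 205 against 266 (-0.37) and 268 against 322 (-0.27). With weights by clone the Gzmb ratios were -0.29 (18 clones higher, 28 lower) and -0.07 (22 higher, 26 lower). Tcf7 was at 15.3 against 4.86 on day 13 (1.66), from 69 UMIs in 23 of 62 droplets, of which 6.41 would come with the T-free level. On day 19 it was at 3.42 against 1.33 (1.36), from 36 UMIs, of which 11.5 would come with the full T-free level. The myeloid part of this ratio cannot be set either. With weights by clone the Tcf7 ratios were 1.30 (19 clones higher, 10 lower) and 0.27 (11 higher, 12 lower).

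The clones with the most C1q-high droplets, whose CDR3 sequences are given above, did not share 1 direction. The day-19 TRBV5 and TRBJ2-5 clone had 15 C1q-high and 113 C1q-low droplets with Pdcd1 at 48.8 and 64.8, and the TRBV26 and TRBJ1-6 clone had 14 and 46 with Pdcd1 at 49.3 and 73.6. In the TRBV16 and TRBJ2-7 clone, with 9 and 38 droplets, Pdcd1 was the other way round, at 74.5 and 52.6. Gzmk was nearly absent from the TRBV26 clone in both groups (0 and 1 UMI) and present in the TRBV5 clone (26 and 290 UMIs). The C1q-high share of the droplets in either group was 11.7%, 23.3% and 19.1% in these clones. On day 13 each of the 3 clones had 3 C1q-high droplets, with Pdcd1 at 165 against 23.3 in the TRBV17 clone, 26.9 against 33.0 in the TRBV20 clone and 147 against 76.9 in the TRBV2 clone.

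The amount of C1q RNA did not order the T cell genes evenly. On day 13, Pdcd1 was at 29.6, 30.04, 29.1 and 27.1 in droplets with 0, 1, 2 to 4 and 5 to 9 C1q UMIs, and at 45.6, 48.5 and 39.3 with 10 to 19, 20 to 49 and 50 or more. On that day the level was higher from 10 UMIs on and did not go on rising. On day 19, Pdcd1 showed no such step, at 37.1, 41.6, 56.4, 41.5, 36.7, 43.4 and 35.5 over the same ranges, with its peak at 2 to 4 C1q UMIs. On day 19, Tcf7 was at 20.8, 17.4, 18.0, 9.93, 10.4, 11.6 and 14.4 over the same ranges, lowest from 5 to 49 C1q UMIs. Ctla4 on day 19 was at 23.8, 25.6, 28.5, 37.0, 55.1, 32.8 and 30.1, with its peak in the 56 droplets that had 10 to 19 C1q UMIs.

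Shares of droplets with a UMI were compared after thinning each droplet to 30 T cell reference UMIs. This left out 48 C1q-high and 267 C1q-low droplets on day 13 and 23 and 92 on day 19 that were shallower. Pdcd1 was then found in 40.4% (32.5 to 48.7) of C1q-high and 32.9% (30.9 to 34.9) of C1q-low droplets on day 13, and in 48.5% (42.4 to 54.7) and 41.0% (38.1 to 44.0) on day 19. Unthinned, the shares were 46.2% and 40.9% and then 56.4% and 47.4%, and T-free droplets had 4.06% and 4.42%. Tcf7 was found in 43.0% against 51.6% and 29.5% against 38.9% (unthinned 53.8% against 62.9% and 43.0% against 49.2%, T-free 6.27% and 3.54%). Gzmk was found in 46.4% against 33.9% and 31.7% against 21.3% (unthinned 52.8% against 38.1% and 40.2% against 28.4%, T-free 1.11% and 1.77%). Any restricted Ly49 gene was found in 9.93% against 16.0% and 10.8% against 16.9% (unthinned 11.6% against 19.9% and 16.2% against 20.9%, T-free 1.48% and 1.77%). Median depths of the groups are those given at the start.

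The antibody tags gave a readout of surface protein that the C1q rule did not use. CD11b, an integrin of myeloid cells, had a median of 20 tag UMIs per C1q-high droplet, 5 per C1q-low and 28 per T-free droplet on day 13, and 11, 3 and 22 on day 19. By set the medians were 21, 18, 20 and 20 against 5, 5, 4 and 5 on day 13 and 15, 9, 12 and 10 against 3 in every set on day 19. MHC class II had medians of 7, 5 and 8 and then 5, 3 and 10, CD86 of 13, 10 and 12 and then 8, 6 and 6, and PD-L1 (CD274) of 7, 5 and 7 and then 4, 3 and 4. Of the T cell proteins, CD90.2 and CD5 were lower in T-free droplets, while CD3, CD8a and others were not, as given below. CD90.2 had medians of 13, 13 and 4 on day 13 and 11, 10 and 2 on day 19, and CD5 of 9, 9 and 6 and then 5, 5 and 3. C1q-high droplets therefore carried a myeloid surface protein above the C1q-low level in every set, beside an undiminished T cell protein.

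Many tags could not be read. PD-1 had medians of 53, 53 and 52 on day 13 and 29, 28 and 26 on day 19, so T-free droplets had nearly as much as T cells, and CD8a, CD3, TIGIT, LAG-3 and TIM-3 were likewise alike in all 3 groups (on day 13, CD3 at 37, 38 and 36, and TIGIT at 121, 126 and 125). CD45.1, an allotype that C57BL/6J mice do not carry, had medians of 66, 66 and 64 on day 13. The myeloid tags F4/80 (14, 14 and 14), CX3CR1 (60, 60 and 60) and CD64 (63, 62 and 65) were alike too on day 13. The isotype control IgG1 stood at 12, 11 and 11. Surface PD-1 was therefore not measurable as a difference between C1q-high and C1q-low droplets with this panel. Ly-6A (Sca-1), which interferon induces on T cells, had medians of 8 against 4 on day 13 and 6 against 3 on day 19, with T-free droplets at 5 on both days.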

How the data were processed

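Gene and antibody tag counts (UMIs) were deposited as 1 matrix per day and T cell receptor contigs as 4 tables per day. Per the submitters' processing notes, Cell Ranger 4.0.0, STAR 2.7.5c and the mouse build mm10 were used, with alignment settings not given in the sources used here. The matrices held 144565182 gene UMIs on day 13 and 81224453 on day 19, over barcodes that had not been filtered for cells. Droplets were chosen by the rule stated in the report, and no doublet caller was run, since droplets with RNA of 2 cell types were the subject.

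From the deposited counts, UMIs were summed per group with Python 3.11.15, pandas 2.3.3 and numpy 2.4.6. Ratios were taken per 1000 UMIs of 16 T cell reference genes, with exact conditional Poisson intervals, and shares have exact binomial intervals (scipy 1.17.1, 95% level). Where a group had no UMI of a gene, 3 counts stood in for 0 in its ratio. The scripts were tested on simulated data.

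Named genes were the members of the T cell lists that were restricted with at least 30 UMIs, Pdcd1, Tcf7, Gzmk, Lag3 and the Klra genes, the 6 highest and 6 lowest restricted genes per day with at least 100 UMIs, and the 3 clones per day with the most C1q-high droplets. Partner genes were described by list. Examples of genes within clone sizes and C1q ranges, and of antibody tags, were chosen after their values were seen. The members and lists were chosen with earlier results of these data known. The alternatives changed the scale, the reference genes, the C1q, depth and CD8 limits, the receptor chains, the tag purity, the weights, the clone definition and 1 contig set at a time. Leaving out droplets with a Foxp3 UMI and the per-million scale relative to the median were added after seeing the data. R 4.1.2, Seurat and bcl2fastq 2.20, also named in those notes, have no stated role there. Single-gene values of some listed genes are not reported here.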

Additional observations from a re-analysis of the deposited data

Results flagged for a closer look

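Barcodes without a T cell receptor contig that held at least 10 C1q UMIs were outside the comparison, and most of them also carried T cell RNA. Of 1663 such barcodes on day 13, 83.7% (95% exact binomial interval 81.8 to 85.4) had a UMI of Cd3d, Cd3e or Cd3g, and of 895 on day 19, 87.4% (85.0 to 89.5). They were much deeper than the droplets compared here, with medians of 25495 and 30024 gene UMIs, and a Foxp3 UMI was present in 40.2% and 55.5% of them.

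Among 70 groups of 4 contig sets, 4 had 1 set far from the other 3, and chance gives about 1 in 20. In day-13 C1q-low droplets, the share in clones of at least 2 barcodes was 41.4% in set 2. In day-19 C1q-high droplets, Tigit was at 25 per 1000 T cell reference UMIs in set 4 and Tox at 18.0 in set 3. In day-19 C1q-low droplets, Gzmb was at 112 in set 1.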

How the results depend on the processing

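No paired test was run. No result here comes from a test, so there was no fit to which a block by contig set could be added. The groups are compared within each set beside the results. Under the alternatives, 151 of 177 values of the main results on each day moved by less than the spread over the contig sets, stayed within the binomial interval (the C1q-high share) or, for counts of genes, moved by at most 1.5 times. That spread is wide for the Ly49 median, which was -1.08 as CPM and -0.99 at 20 C1q UMIs on day 13. As CPM of all gene UMIs, which counts the myeloid RNA in its total, the exhaustion median was -0.19 on both days and the progenitor median -0.97 and -0.67, with 3 genes higher and 94 lower past 2-fold on day 13 and 2 and 24 on day 19. Ratios that turned there included, on day 13, Pdcd1 -0.11, Gzmk -0.13, Tigit -0.077, Tox -0.13, Ifng -0.17, Rgs16 -0.26 and Icos -0.31, and, on day 19, Gzmk -0.12, Tigit -0.0039, Gzmb -0.24, Ifng -0.059, Rgs16 -0.077, Tox -0.14 and Pdcd1 -0.29. Relative to the median of restricted genes on that scale, Pdcd1 was at 0.50 and 0.04.

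The day-13 exhaustion median was 0.30 per droplet, 0.31 with at least 50 T cell reference UMIs, 0.29 with purer multiplexing tags, 0.15 with C1q-low weighted to the clone sizes and sets of C1q-high, 0.20 with a restriction limit of 2% and 0.19 without cycling droplets. The day-19 progenitor median was -0.12 with at least 50 T cell reference UMIs, -0.51 with at least 3 CD8 UMIs, -0.18 with the weights and -0.51 without Foxp3 droplets. Genes higher past 2-fold on day 13 numbered 7 per droplet, 5 without cycling droplets and 2748 with no minimum of UMIs (73 lower). On day 19 they numbered 8 with at least 3 CD8 UMIs, 8 with purer tags, 3 with 1 TRA chain, 1 without cycling droplets and 2027 with no minimum (142 lower), and 19 were lower with 1 TRA chain. With no minimum, sums of 0 stand at 3 counts, which fills these counts.

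The C1q-high share was 6.06% and 14.5% at a limit of 20 C1q UMIs, 5.95% and 15.4% at 2000 gene UMIs, and 6.18% on day 13 with at least 50 T cell reference UMIs. At that last limit, clones of at least 2 barcodes held 49.4% of C1q-high and 46.8% of C1q-low droplets (difference 2.65) and 60.9% and 54.7% on day 19 (6.22). At 5 barcodes the shares were 23.6% and 19.0%, then 29.6% on day 19 in C1q-high with a difference of -0.051. The CD11b difference was 11 at 2000 gene UMIs and 12 with purer tags on day 13. Day-19 ratios that turned included Gzmk -0.19, Lef1 0.047, Gzmb -0.010 and Pdcd1 -0.071 with at least 50 T cell reference UMIs, Pdcd1 -0.091 with purer tags, Lef1 0.056 and Pdcd1 -0.061 with the weights, and Xcl1 0.46 without cycling droplets.

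Leaving out 1 contig set at a time gave, on day 13, 7 to 11 higher and 25 to 34 lower genes, exhaustion medians of 0.20 to 0.47, progenitor medians of -0.51 to -0.17, Ly49 medians of -0.97 to 0.23 (Klra7 -0.80 to 0.23, Xcl1 -0.69 to 0.040) and clone differences of 4.86 to 12.2. On day 19 it gave shares of 15.4 to 23.1%, 4 to 9 higher and 13 to 15 lower genes, progenitor medians of -0.55 to -0.28, Ly49 medians of -1.02 to -0.67, Gzmb ratios of -0.28 to 0.39, Pdcd1 ratios of -0.022 to 0.19 and clone differences of 10.3 to 15.2. The causes of these changes were not tested.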

Other observations

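Barcodes with at least 10 C1q UMIs and a CD3 UMI but no T cell receptor contig, 1392 on day 13 and 782 on day 19, were deeper than the droplets compared above and held more presentation RNA per barcode. MHC class II genes summed to 517 UMIs per barcode on day 13, against 151 in C1q-high CD8 droplets and 279 in T-free droplets, and MHC class I genes to 356, against 161 and 133. As CPM, class II stood at 17953, against 11751 and 27528, and class I at 12366, against 12495 and 13119. The highest multiplexing tag took at least 80% of tag UMIs in 10.1% of them on day 13 and 26.2% on day 19, against 73.9% and 79.3% of C1q-high CD8 droplets. A Mki67 or Top2a UMI was present in 51.9% and 73.1% of them.

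Droplets with 2 to 9 C1q UMIs, which belong to neither group, lay between them in macrophage RNA on both days. On day 13, the 122 droplets had 11.0 UMIs of macrophage markers per droplet, against 67.4 in C1q-high and 1.40 in C1q-low droplets. On day 19, the 144 droplets had 2.85, against 53.2 and 0.849. A clone of at least 2 barcodes was present in 38.5% of them on day 13 (exact binomial 95% interval 29.9 to 47.8%), against 38.7% of C1q-high and 29.7% of C1q-low droplets. On day 19 the share was 57.6% (49.1 to 65.8%), against 50.2% and 37.9%. Their median number of T cell reference UMIs was 54 on day 13 and 84.5 on day 19.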
